A study of Mus musculus with 8 samples.

Results

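Transcripts of 9 mouse genes that sense foreign or misplaced nucleic acid, or that respond to interferon, were compared between male germ cells labelled as Tet1 knockout and as wild type. The genes were chosen by name, with earlier results of these data known. They were RNA sensors, their regulators and interferon-stimulated genes: Ddx58, Ifih1, Dhx58, Zbp1, Adar, Irf7, Isg15, Oasl2 and Mx1. All 9 were found among the 55401 genes of the deposited count table through their Ensembl identifiers. The 8 libraries were made from E17.5 prospermatogonia, germ cells of the male embryo that have stopped dividing, 4 of genotype Tet1-/- (KO 1 to KO 4) and 4 of genotype Tet1+/+ (WT 1 to WT 4), all in labelled batch 1. The series title asks about non-catalytic TET1, the chromatin it shapes and the new methylation laid down in male germ cells. No source used here gives the kind of Tet1 allele, the strain, the way the cells were isolated or any pooling of animals, and p-values measure only the spread between these libraries.

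Cells detect double-stranded or otherwise unusual RNA in the cytoplasm with the RIG-I-like receptors. RIG-I (gene Ddx58) and MDA5 (Ifih1) signal through the adaptor MAVS to kinases that activate the factors IRF3 and IRF7, which switch on type I interferon genes. Interferon acts through its receptor, JAK kinases and STAT factors on genes with an interferon-stimulated response element, many of which encode sensors and antiviral proteins, so that the pathway feeds back on itself. In germ cells the same sensors can meet RNA made from the cell's own retrotransposons while DNA methylation is low.

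Promoter sequence is shown first, because interferon acts on genes that carry the response element. Windows of 300 bases around annotated starts (RefSeq, GRCm38.p6) were found for 6 of the 9 genes, Isg15, Ddx58, Ifih1, Adar, Oasl2 and Irf7, with 8 windows in all. The core of the element was searched as the letters GAAANNGAA on both strands. Of 32851 windows of all genes, 8.56% held it, and 3.44% held it followed by a further A, beside 4 and 3 of the 8 windows here. Counted by gene, the shares were 9.76% and 3.99% of 27025 genes, beside 4 and 3 of these 6, the 3 being Isg15, Ddx58 and Ifih1. The 9 genes were chosen as sensors, their regulators or interferon-stimulated genes, so these shares describe them and do not test for enrichment. No window was found for Dhx58, Zbp1 and Mx1, so the letters cannot be set beside the direction of these genes. The capitals below mark the matched letters, and the Isg15 stretch holds 3 matches that overlap.
Isg15 (chr4:156200856-156200915, minus strand, first match 78 bases before the start): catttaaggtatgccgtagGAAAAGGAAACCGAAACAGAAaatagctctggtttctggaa
Ddx58 (chr4:40239796-40239825, minus strand, on the opposite strand from base 4 after the start): agtTTCGATTTCctatggccagccggctag
Ifih1 (chr2:62646333-62646392, minus strand, on the opposite strand from 112 bases before the start): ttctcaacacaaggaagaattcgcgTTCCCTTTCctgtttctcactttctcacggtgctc
Ifih1 (chr2:62646206-62646235, minus strand, from base 33 after the start): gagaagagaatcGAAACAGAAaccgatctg
Adar (chr3:89730738-89730767, plus strand, from base 34 after the start at 89730718): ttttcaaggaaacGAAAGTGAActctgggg
The windows of Oasl2 and Irf7 and the other 2 of Adar did not hold these letters, and the same Adar window had 1 more match 249 bases before the start. A match is a run of letters, not a shown binding site. The count of CG dinucleotides, which can be methylated, was 6 for Isg15, 3 for Oasl2, 7 for Irf7, 14 for Ifih1 and 15 for Ddx58, beside a median of 7 over all windows. The 3 Adar windows held 6, 34 and 12.

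Totals ran from 13820764 to 20115250 counts per library, and a count of 0 allowed up to 3 counts, or 0.149 to 0.217 CPM (counts scaled to a common library size, counting error only). Tet1 itself went against the labels, with a mean of 124 ± 33.4 CPM under the KO label and 31.9 ± 1.95 CPM under the WT label (SD, n = 4 each), so directions below refer to the labels. Which Tet1 exons were read is not visible in a gene count. The summed level of 12 germ cell markers was high in both groups, at 2721 to 3332 CPM under the WT label and 2778 to 3476 CPM under the KO label. In KO 4 the summed level of 5 Leydig cell markers was 1751 CPM, against 12.5 to 28 CPM in the other libraries. That of 8 Sertoli cell markers was 101 CPM there, against 17.7 to 30.6 CPM elsewhere. Of these 8, Inha had 32 to 907 counts in the libraries labelled KO, with an SD of 27.99 CPM. That SD was 4.93 CPM for Gata4, 1.11 for Sox9, 0.936 for Amh and 1.13 for Wt1. The Sertoli sum of KO 4 therefore does not show a rise of these markers as a set. By calls, 4 of the 8 Sertoli cell markers were higher and 1 lower under the KO label, and of 4 endothelial markers tested 1 was higher and 3 lower. Of the germ cell markers 5 were higher and 3 lower. The 7 stroma markers held 2 higher and 1 lower, and all 4 Leydig cell markers tested were higher, with overlapping groups. Of all genes tested, 25.3% were higher and 28.2% lower. Of 16 leukocyte markers 10 could be tested, 8 of which were lower and 0 higher in the libraries labelled KO. All 10 had a mean log2 CPM under 4, a range in which 14.3% of genes tested were higher and 33.8% lower. The summed leukocyte level was 31.5 to 37.3 CPM in the libraries labelled WT and 11.9 to 19.9 CPM in those labelled KO, with no marker at 0 in all libraries. The 6 untested ones, Ptprc, C1qa, C1qb, C1qc, Lyz2 and Tyrobp, had 12 to 74 counts over all 8 libraries. In such bulk samples, fewer cells of a type and less RNA per cell cannot be told apart.

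Under the KO label 5 of the 9 genes were higher (Isg15, Oasl2, Ddx58, Zbp1 and Adar), 2 were lower (Mx1 and Dhx58) and 2 did not pass (Ifih1 and Irf7). A gene passed at an edgeR adjusted p under 0.05 (Benjamini-Hochberg over all genes tested). Of all 24005 genes tested, 25.3% were higher and 28.2% lower, 53.5% in all, so passing is common in these data. Upper-quartile scaling gave 4033 higher and 8882 lower where the main scaling gave 6083 and 6770, and ribosomal protein scaling gave 4129 and 7140. Against the main scaling, these shifted the median over all genes tested by -0.24 and -0.15 on the log2 scale. Direction also went with abundance: among genes with a mean log2 CPM under 4, 14.3% were higher and 33.8% lower. In that range lay 7 of the 9 genes, 3 of them higher, 2 lower and 2 not passing. Adar and Ddx58, both higher, lay above it, where 46.0% of genes were higher. With a log2 difference of at least 1 as well, 4 of the 9 genes were higher and 2 lower, beside 8.78% and 19.4% of all genes tested, and 7.37% and 27.0% of those with a mean log2 CPM under 4. The groups did not overlap for 7 of the 9 genes, beside 48.4% of all genes tested. The median difference of the 9 genes was 0.69 on the log2 scale, beside -0.05 for all genes tested. Because the 9 genes were chosen with earlier results of these data known, these shares describe them and do not test for enrichment. Each of the 9 genes was on the same side of the threshold in all 18 alternative settings, KO 4 left out among them.

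**Figure D1:**
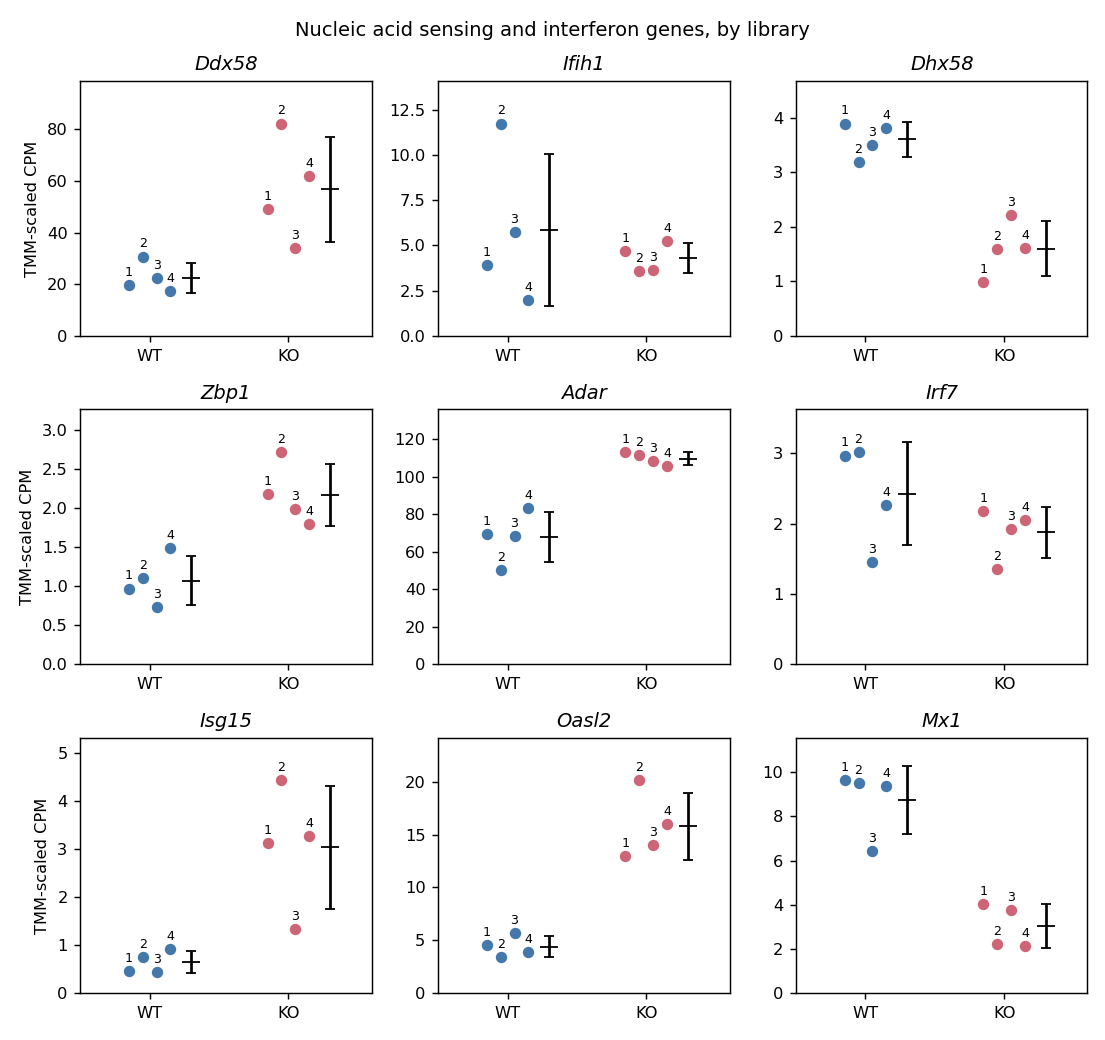
TMM-scaled CPM (y axis, linear from 0) of each gene in the 4 libraries labelled WT (blue) and the 4 labelled KO (red), numbered by replicate, with the mean and SD as black bars. Ddx58, Zbp1, Adar, Isg15 and Oasl2 lie higher in every library labelled KO, Dhx58 and Mx1 lie lower, and Ifih1 and Irf7 overlap, with WT 2 at 11.7 CPM for Ifih1.

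Of the 3 RIG-I-like receptor genes, Ddx58 was higher, Dhx58 was lower and Ifih1 did not pass. Ddx58 (ENSMUSG00000040296.15, chromosome 4, 40203773 to 40239828, minus strand, GRCm38) encodes RIG-I, which binds RNA with a triphosphate at its 5′ end. Its level was 19.8, 30.7, 22.3 and 17.4 CPM in WT 1 to WT 4 and 49.0, 82.1, 34.1 and 61.8 CPM in KO 1 to KO 4. The lowest library labelled KO was above the highest labelled WT, with KO 2 the highest. The groups differed by 1.33 on the log2 scale (SE 0.238, edgeR adjusted p = 0.00046), a 2.52-fold higher level. Ifih1 (ENSMUSG00000026896.14, chromosome 2, 62595798 to 62646255, minus strand) encodes MDA5, which binds long double-stranded RNA. It had 3.89, 11.7, 5.74 and 2.01 CPM in WT 1 to WT 4 and 4.70, 3.57, 3.62 and 5.27 CPM in KO 1 to KO 4. The libraries labelled KO lay inside the range of those labelled WT, whose spread was set by WT 2. The log2 difference was -0.45, with a 95% interval from -1.32 to 0.42 (edgeR adjusted p = 0.37), and it was 0.14 without WT 2. Dhx58 (ENSMUSG00000017830.15, chromosome 11, 100694884 to 100704271, minus strand) encodes LGP2, which lacks the signalling domain of the other receptors and modulates them. It had 3.89, 3.19, 3.50 and 3.82 CPM in WT 1 to WT 4 and 0.994, 1.59, 2.21 and 1.61 CPM in KO 1 to KO 4, with no overlap. The difference was -1.17 on the log2 scale (SE 0.275, edgeR adjusted p = 0.00302), a fold of 0.444. The libraries held 15 to 76 counts of Dhx58 each. An antisense gene, Dhx58os, covers 4.31% of its exon bases, with 100 counts in all beside 360 for Dhx58, and the strand setting of the counting is not given.

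Ratios of 2 genes within a library do not depend on how libraries are scaled. The ratio of Ddx58 to Ifih1 counts (0.5 added to each) was 5.05, 2.61, 3.87 and 8.56 in WT 1 to WT 4 and 10.4, 22.8, 9.34 and 11.7 in KO 1 to KO 4. Ddx58 had more counts than Ifih1 in every library, and the ratio was higher in each library labelled KO. The mean log2 ratio was 2.19 ± 0.72 (SD, n = 4) against 3.66 ± 0.58 (SD, n = 4), a difference of 1.47 (exact two-sided permutation p = 0.0286, no smaller p being possible with 70 splits, and 0.0286 adjusted over 4 ratios). The other ratios had to reach this smallest p, as given below, so the adjustment could not raise it. Ddx58 also separated the groups on its own, so this p is not independent of the Ddx58 difference. Ddx58 to Dhx58 rose from a mean log2 ratio of 2.61 ± 0.48 to 5.10 ± 0.81 (SD, n = 4), a difference of 2.49 with the same exact p of 0.0286. Ddx58 and Dhx58 had each separated the groups already, in opposite directions. Their ratio therefore had to separate them too, and its p adds no evidence. Without any 1 library labelled KO the adjusted exact p of the first ratio was 0.0571, as was that of the second without any 1 labelled WT, with differences of at least 1.19 and 2.30. In linear terms, and not adjusted for the length of the genes, Ddx58 counts were 4.53 to 9.54 times those of Dhx58 in the libraries labelled WT and 15.2 to 50.8 times in those labelled KO.

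**Figure D2:**
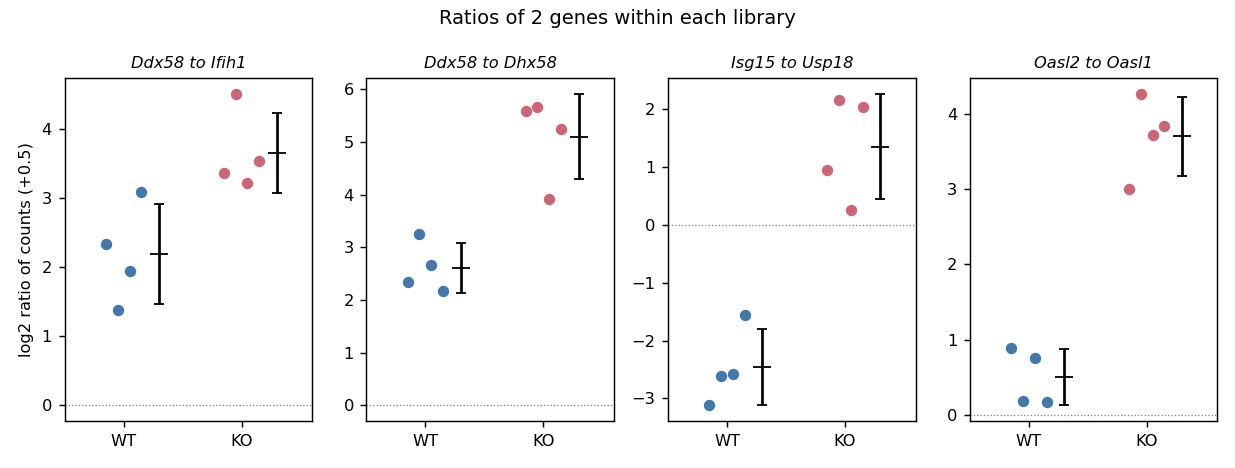
Log2 ratio of the counts of 2 genes (0.5 added to each; y axis) in each library labelled WT (blue, 1 to 4 from left to right) or KO (red, likewise), with mean and SD in black. All 4 ratios are higher in every library labelled KO, and Isg15 to Usp18 goes from below 0 to above it.

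Zbp1 and Adar, which meet on the same ligand, were both higher. Zbp1 (ENSMUSG00000027514.14, chromosome 2, 173206612 to 173218923, minus strand) encodes a sensor of left-handed Z-form nucleic acid that can start cell death through RIPK3. It had 0.973, 1.10, 0.730 and 1.49 CPM in WT 1 to WT 4 and 2.19, 2.72, 1.99 and 1.80 CPM in KO 1 to KO 4. The groups did not overlap, but WT 4 and KO 4 were close. Zbp1 rose by 1.03 on the log2 scale (SE 0.317, edgeR adjusted p = 0.0149), by 0.79 with upper-quartile scaling (adjusted p = 0.0494) and by 1.602 with cyclic loess. Its adjusted p ran from 0.0018 to 0.0497 over the alternatives, the highest with ribosomal protein scaling. Libraries held 15 to 48 counts of Zbp1, so this is a difference between scarce transcripts. Adar (ENSMUSG00000027951.16, chromosome 3, 89715022 to 89753446, plus strand) encodes ADAR1, which edits adenosine to inosine in double-stranded RNA and so keeps the cell's own RNA from its sensors. It had 69.5, 50.4, 68.4 and 83.4 CPM in WT 1 to WT 4 and 113, 112, 108 and 106 CPM in KO 1 to KO 4. The libraries labelled KO lay close together, all above those labelled WT. Adar rose by 0.69 on the log2 scale (SE 0.133, edgeR adjusted p = 0.00075), a 1.62-fold higher level, by 0.46 with upper-quartile scaling and by 0.45 with cyclic loess. Gene counts do not separate the interferon-inducible long form of ADAR1 from the constitutive short one. On the opposite strand Chrnb2 covers 16.8% of the Adar exon bases, with 1072 counts in all beside 11713 for Adar.

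Irf7 (ENSMUSG00000025498.15, chromosome 7, 141262706 to 141266481, minus strand) encodes the factor that amplifies type I interferon production. It had 2.97, 3.02, 1.46 and 2.26 CPM in WT 1 to WT 4 and 2.19, 1.36, 1.92 and 2.06 CPM in KO 1 to KO 4. The ranges overlapped, with WT 3 nearly as low as the lowest library labelled KO. Irf7 differed by -0.37 on the log2 scale, with a 95% interval from -1.03 to 0.29 (edgeR adjusted p = 0.327). Each library held 24 to 58 counts. On the opposite strand Phrf1 covers 1.19% of the Irf7 exon bases, with 42884 counts in all beside 290 for Irf7.

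The 3 effector genes were split as well. Isg15 (ENSMUSG00000035692.7, chromosome 4, 156199424 to 156200818, minus strand) encodes a ubiquitin-like protein that is attached to other proteins after interferon. It had 0.461, 0.755, 0.438 and 0.906 CPM in WT 1 to WT 4 and 3.11, 4.42, 1.33 and 3.28 CPM in KO 1 to KO 4. KO 3 was closest to the libraries labelled WT and KO 2 farthest from them. Isg15 rose by 2.26 on the log2 scale (SE 0.406, edgeR adjusted p = 0.000477), a 4.80-fold higher level and the largest rise among the 9 genes. Each library labelled WT held only 9 to 14 counts, and each labelled KO 18 to 78. Oasl2 (ENSMUSG00000029561.17, chromosome 5, 114896936 to 114912234, plus strand) encodes a relative of the 2′-5′ oligoadenylate synthetases that carries ubiquitin-like domains. It had 4.56, 3.37, 5.70 and 3.88 CPM in WT 1 to WT 4 and 13.0, 20.1, 14.02 and 16 CPM in KO 1 to KO 4. The groups lay far apart, the lowest library labelled KO well above the highest labelled WT. Oasl2 rose by 1.85 on the log2 scale (SE 0.207, edgeR adjusted p = 1.49e-05), a 3.59-fold higher level. Mx1 (ENSMUSG00000000386.16, chromosome 16, 97447035 to 97462907, minus strand) encodes a dynamin-like GTPase that blocks viruses in the nucleus, and many laboratory strains carry a defective allele. It had 9.63, 9.53, 6.43 and 9.38 CPM in WT 1 to WT 4 and 4.04, 2.21, 3.76 and 2.12 CPM in KO 1 to KO 4. The groups did not overlap, although WT 3 was well under the other libraries labelled WT. The log2 difference was -1.53 (SE 0.254, edgeR adjusted p = 0.000269), a fold of 0.346. The summed leukocyte level given above was lower in the same libraries as Mx1 and Dhx58. Of the 10 leukocyte markers tested, 8 were lower and 2 did not pass, Cd79a and Cd68, the latter with a log2 difference of 0.41. The part of leukocytes in the differences of Mx1 and Dhx58 was not tested. Of the distinct stretches of 50 bases in the Mx1 transcripts, 3.86% also occur in those of its neighbour Mx2, which had a log2 difference of 0.21 (edgeR adjusted p = 0.609).

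**Figure D3:**
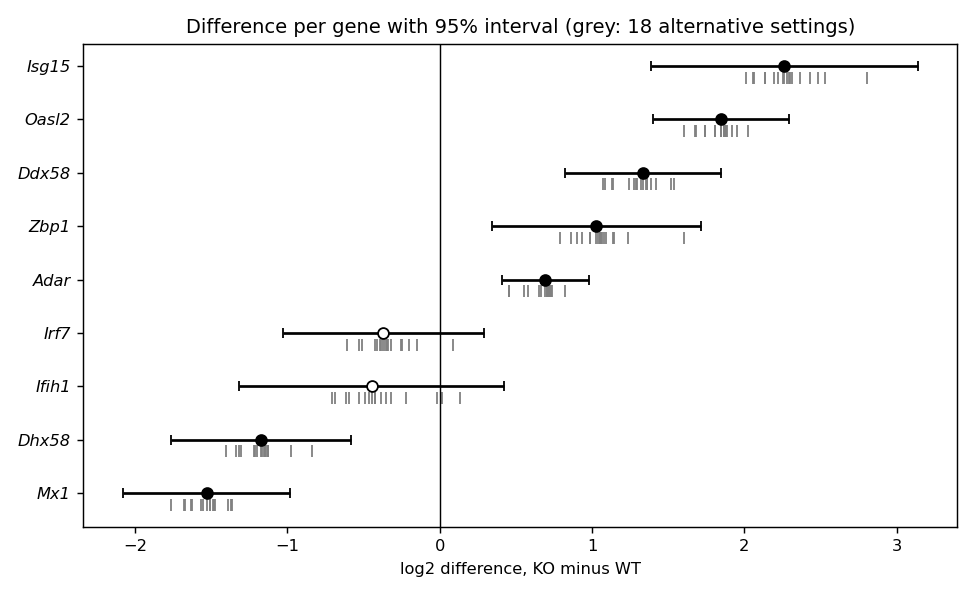
Log2 difference, KO minus WT (x axis), of each gene with its 95% interval (filled where the edgeR adjusted p was under 0.05, open where it was not), and the same difference in 18 alternative settings as grey marks. Isg15 stands at 2.26 and Mx1 at -1.53, and only the grey marks of Ifih1 and Irf7 cross 0.

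Library by library, KO 2 was the highest of its group for 4 of the 5 genes that rose, Isg15, Oasl2, Ddx58 and Zbp1, and the lowest for Ifih1 and Irf7. Adar was highest in KO 1. Scaled to the length of their exons (CPM per kilobase), the genes could be put in order. The annotated exons of Irf7 merge into 1 block of 3776 bases, its whole span, so its scaled level may be understated. In the libraries labelled WT this ran from Adar (8.37 ± 1.67), Ddx58 (3.20 ± 0.824) and Mx1 (2.31 ± 0.409) to Dhx58 (1.10 ± 0.0977), Isg15 (0.847 ± 0.302), Ifih1 (0.716 ± 0.516), Oasl2 (0.687 ± 0.158), Irf7 (0.643 ± 0.194) and Zbp1 (0.304 ± 0.0898, all SD, n = 4). Only Adar against Ddx58 and Mx1 against Dhx58 were neighbours whose libraries did not overlap. In the libraries labelled KO, Isg15 (4.02 ± 1.69) and Oasl2 (2.48 ± 0.496) took the third and the fourth place, after Adar (13.5 ± 0.412) and Ddx58 (8.05 ± 2.89). Mx1 (0.802 ± 0.267), Zbp1 (0.616 ± 0.113), Ifih1 (0.526 ± 0.102), Irf7 (0.498 ± 0.0961) and Dhx58 (0.489 ± 0.152, all SD, n = 4) followed, each overlapping the next. There the neighbours without overlap were Adar against Ddx58 and Oasl2 against Mx1.

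The genes whose levels followed each member most closely were sought among 15910 protein-coding genes, by Pearson's r of log2 CPM over the same 8 libraries, which share the difference between the groups. Isg15 was followed by Syk (r = 0.998) and Eif2s3x (0.993), Ddx58 by Nckap1 (0.999) and Rsf1 (0.995), and Oasl2 by Dennd2c (0.997) and Ocrl (0.996). Adar was followed by Wipi2 (0.995) and Mief2 (0.992), and Zbp1 by Mypop (0.986) and Xlr3a (0.973). For the genes that fell, the closest were Caln1 and Abcc3 for Mx1 (0.988 for each) and Pkd2l1 (0.993) and Frrs1l (0.983) for Dhx58. Ifih1 was followed by Ankib1 (0.961) and Cadm1 (0.953), and Irf7 by Fam166a (0.958) and Ces4a (0.930). None of these 18 genes was on a list of the pathway.

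The rest of the pathway was described over 10 lists with 140 genes, of which 123 could be tested. Of these, 38 were higher, 40 lower and 45 did not pass, beside the 25.3% and 28.2% of all genes tested. Their median log2 difference was 0.01, beside -0.05 for all genes tested. Upper-quartile scaling gave 29 higher and 51 lower, and without KO 4 the counts were 37 and 33.

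Among 11 genes that relay or tune the signal of RIG-I, 6 rose, 1 fell and 4 missed the threshold, and the median log2 difference was 0.49. Of all genes tested, 25.3% were higher and 28.2% lower. The share higher was 46.0% at a mean log2 CPM of 4 or more, where Trim25, Irf3 and Mavs lay. Ddx60, a helicase that promotes RIG-I signalling, went from 2.08 ± 0.818 to 7.86 ± 2.71 CPM (SD, n = 4) and rose by 1.92 on the log2 scale. The ubiquitin ligase gene Trim25 rose by 0.98, the transcription factor gene Irf3 by 0.69, and the adaptor gene Mavs by 0.49. The kinase gene Ikbke fell by 1.16. Among 14 genes that bind or process double-stranded RNA, 5 rose, 3 fell and 6 missed the threshold (median 0.11). Dicer1 (0.63) and the mitochondrial RNA helicase gene Supv3l1 (0.70) rose, and Adarb2 (-2.02) and Prkra (-0.59) were among those that fell. Eif2ak2, which encodes the kinase PKR, was at 19.3 ± 1.96 CPM under the WT label and 19.3 ± 1.01 CPM under the KO label (SD, n = 4; edgeR adjusted p = 0.993). Prkra did not pass in 7 of the 18 settings (without KO 2, KO 3, WT 2, WT 3 or WT 4, with no filter, and in limma with library weights; adjusted p 0.0502 to 0.0982).

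Sensors of endosomal and DNA ligands were mixed. The counts of these lists stand beside 25.3% higher and 28.2% lower of all genes tested. Of 8 tested genes of the endosomal toll-like receptor list, 2 were higher, 4 lower and 2 did not pass (median -0.16). Irak1, a kinase below these receptors, rose by 2.09, and Irak4 (-1.37), Tlr3 (-1.31) and Irf5 (-1.24) fell. Traf6 rose by 0.48 but did not pass with upper-quartile (adjusted p = 0.127) or ribosomal protein scaling (0.141). Tlr7, Tlr8 and Tlr9 had at most 64 counts in all and were not tested. Of 10 tested genes of DNA sensing, 3 were higher, 3 lower and 4 did not pass (median 0.03). Rnaseh2c (2.01), a subunit of the RNase that removes RNA from hybrids with DNA, and Banf1 (1.34), a DNA-binding nuclear protein gene, rose. Genes on the other strand cover 24.8% and 28.6% of their exon bases. Ifi204 fell by 2.26 and shares 20.02% of its transcript words with other genes. Trex1 was listed at 0 in all libraries, and all its exon bases lie within Atrip on the same strand. Of 5 genes below ZBP1, Fadd rose by 0.89, Mlkl fell by 1.70 and 3 did not pass, Ripk3 among them (log2 difference -0.43, edgeR adjusted p = 0.142). With cyclic loess Mlkl did not pass (adjusted p = 0.0549).

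Interferon transcripts were scarce. Of 9 interferon genes none passed the filter on low counts, Ifnb1 and Ifna4 had a count of 0 in every library, and the most abundant, Ifnk, had 32 counts over all 8. The 16 receptor and JAK-STAT genes held 4 that rose, 5 that fell and 7 that missed the threshold (median -0.08). Of all genes tested, 25.3% were higher and 28.2% lower. The receptor chains of type I interferon went opposite ways, with Ifnar1 higher by 0.69 and Ifnar2 lower, at a fold of 0.499. The kinase gene Tyk2 rose by 0.85 and Jak1 by 0.35, and Jak2 fell by 0.59. Ptpn2 rose by 0.61. Jak1 did not pass with upper-quartile scaling (adjusted p = 0.347), ribosomal protein scaling (0.198) or cyclic loess (0.221). Stat2 and Irf9, which encode factors that act on the response element, did not pass, with log2 differences of 0.11 and 0.36 (edgeR adjusted p = 0.505 and 0.0838). Among further IRF genes, Irf1 (1.47) and Irf2 (1.52) were higher, Irf8 (-0.60) was lower and Irf4 did not pass.

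Of the 4 enzymes that attach or remove ISG15, 1 was higher and 3 were lower. All 4 had a mean log2 CPM under 4, where 14.3% of genes tested were higher and 33.8% lower. The activating enzyme gene Uba7 rose by 1.38, and the conjugating enzyme gene Ube2l6 (-0.89), the ligase gene Herc6 (-0.73) and the protease gene Usp18 (-1.70) fell. Usp18, which removes ISG15 and restrains the interferon receptor, went from 3.602 ± 1.04 to 1.11 ± 0.35 CPM (SD, n = 4). Herc6 shares 12.5% of its transcript words with other genes and did not pass without KO 2 (edgeR adjusted p = 0.0505). The ratio of Isg15 to Usp18 counts was 0.115, 0.164, 0.168 and 0.341 in WT 1 to WT 4 and 1.94, 4.49, 1.19 and 4.12 in KO 1 to KO 4. Usp18 had the higher count of the pair in each library labelled WT, and Isg15 in each labelled KO. The mean log2 ratio differed by 3.82 (exact two-sided permutation p = 0.0286, adjusted p = 0.0286). Isg15 and Usp18 each separated the groups on their own, in opposite directions, so this p was fixed in advance and adds no evidence.

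Other interferon-stimulated genes changed in both directions. Of 54 such genes, 50 could be tested: 14 rose, 18 fell and 18 missed the threshold, and the median log2 difference was -0.19. Of all genes tested, 25.3% were higher and 28.2% lower. The 3 genes listed from the IFITM family, whose membrane proteins block virus entry and of which Ifitm1 and Ifitm3 mark early germ cells, were higher. All 3 had a mean log2 CPM under 4, where 14.3% of genes tested were higher. Ifitm3 went from 1.83 ± 0.947 to 21.3 ± 7.77 CPM (SD, n = 4; log2 difference 3.54), Ifitm1 from 2.70 ± 1.46 to 28.5 ± 12.1 CPM (SD, n = 4; 3.41), and Ifitm2 rose by 2.37. These genes have close copies, and 48.5% of the transcript words of Ifitm2 occur in other genes. The ADP-ribosyltransferase gene Parp12 rose by 1.37. Of 6 other genes of the oligoadenylate synthetase family, 0 were higher, 4 lower and 2 did not pass. All 6 had a mean log2 CPM under 4, where 14.3% of genes tested were higher and 33.8% lower. Oasl1, the neighbour of Oasl2, fell by 1.36, from 3.05 ± 0.446 to 1.18 ± 0.272 CPM (SD, n = 4), Oas1a by 1.31, Oas1g by 1.29 and Oas3 by 1.02. The ratio of Oasl2 to Oasl1 counts was 1.13 to 1.85 in the libraries labelled WT and 8.02 to 19.2 in those labelled KO. Its mean log2 value differed by 3.20 (exact two-sided permutation p = 0.0286, adjusted p = 0.0286). Here too each gene separated the groups on its own, in opposite directions, so the p of the ratio adds no evidence. Of 4 IFIT genes, which encode proteins that bind viral RNA, Ifit2 fell by 0.95, Ifit1 did not pass (-0.22) and Ifit3 and Ifit3b were too scarce to test. Rsad2 (-1.18), Ifi44 (-2.11) and Cxcl10 (-1.03) also fell.

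**Figure D4:**
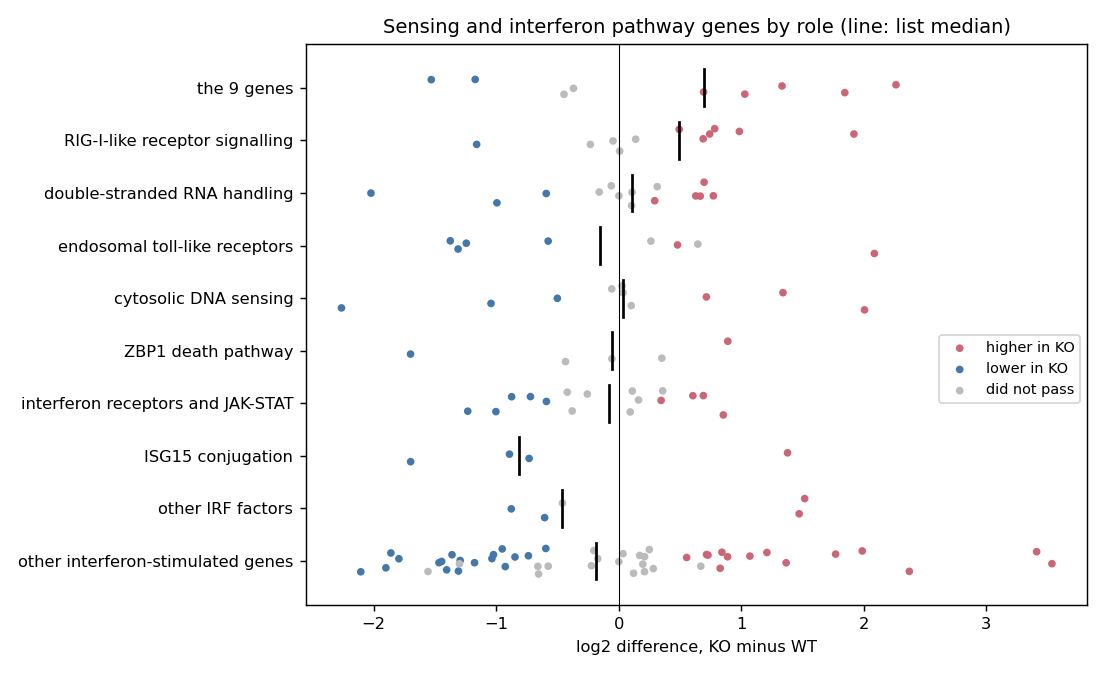
Log2 difference, KO minus WT (x axis), of every tested gene in the 9 and in the lists of the pathway (rows; the interferon genes had none to test), red where higher, blue where lower and grey where the edgeR adjusted p was 0.05 or more, with the list median as a black line. Points are spread vertically only for legibility. Every list with tested genes holds points on both sides of 0, and the highest points are Ifitm3 at 3.54 and Ifitm1 at 3.41.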

How the data were processed

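The authors deposited raw counts, whole numbers per gene and library, not normalized. Tools named in the submitters' processing notes, whose roles are not stated, are STAR, Trim Galore, DESeq2, edgeR and featureCounts 1.5.0; the build is mm10. Per the labels' protocols, ribosomal RNA-depleted total RNA libraries were made from 5 ng with a kit that carries molecular identifiers. No source used here gives the strand setting, the annotation release or any collapsing by identifier. Of 55401 genes, 55141 matched GENCODE M21 (GRCm38) without the version; 0 library columns were left unused.

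Counts were fitted with edgeR 4.0.16 in R 4.3.3 (filterByExpr, TMM scaling, quasi-likelihood test, genotype as the only term), with Benjamini-Hochberg adjustment over all 24005 genes tested. Ratios used counts plus 0.5 and an exact permutation over 70 splits. Exon overlaps came from GENCODE M21 and shared words of 50 bases from its transcripts.

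The 9 genes and all lists were chosen with earlier results of these data known. Named genes were the 9, up to 3 passing genes per list with the lowest p, those passing against the commoner direction of a list (if at most 5), and the 2 closest patterns per gene. Mavs, Eif2ak2, Irf5, Tlr7, Tlr8, Tlr9, Trex1, Ripk3, Ifnk, Ifnb1, Ifna4, Ifnar2, Stat2, Irf9, Irf4, Irf8, Ube2l6, Mx2, Ifitm2, Rsad2, Ifi44, Cxcl10, the OAS and IFIT genes and those under other observations were chosen after their values were seen. Some genes that the rule names are not reported here. Alternatives were DESeq2 1.42.0, limma 3.58.1 with library weights, RLE, upper-quartile and ribosomal protein scaling, no filter and a stricter one (CPM of 1 in 4 libraries), robust dispersion, a replicate block, each library left out and, chosen after seeing the data, cyclic loess.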

Additional observations from a re-analysis of the deposited data

Results flagged for a closer look

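Among 26 groups of 4 values examined (9 genes and 4 ratios in each labelled group), 1 held a library that stood apart from the others, where chance gives about 1 in 20. Mx1 was at 6.43 CPM in WT 3, against 9.38 to 9.63 CPM in the other libraries labelled WT. The gap was 0.923 of the range of the group. Without WT 3 the log2 difference of Mx1 was -1.63 (edgeR adjusted p = 0.000432).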

How the results depend on the processing

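In all 18 settings 5 of the 9 genes were higher and 2 lower, with log2 differences from 2.01 to 2.80 for Isg15, 1.604 to 2.02 for Oasl2, 1.07 to 1.54 for Ddx58, 0.79 to 1.602 for Zbp1, 0.45 to 0.82 for Adar, -1.40 to -0.84 for Dhx58 and -1.76 to -1.36 for Mx1. Ifih1 and Irf7, which did not pass, changed sign with cyclic loess (0.015 and 0.087), and Ifih1 without WT 2; with a library left out Ifih1 ran from -0.71 to 0.14. Upper-quartile scaling gave 4033 genes higher. Same-numbered libraries did not deviate together (r from -0.21 to 0.15), and 1 of 4 libraries labelled KO, KO 1, correlated best with its own number (r = 0.15 with WT 1). The library names of KO 1 and WT 1 also share a number, whose meaning the labels do not give. With a replicate block all 7 calls held, and 36 other pathway genes were higher and 36 lower. For the ratios the block allows no p under 0.125, with the same differences of 1.47 (Ddx58 to Ifih1), 2.49 (Ddx58 to Dhx58), 3.82 (Isg15 to Usp18) and 3.20 (Oasl2 to Oasl1). With a library left out, the difference in log2 ratio ran from 1.19 to 1.77 for Ddx58 to Ifih1, from 2.30 to 2.89 for Ddx58 to Dhx58, from 3.55 to 4.18 for Isg15 to Usp18 and from 3.02 to 3.44 for Oasl2 to Oasl1. The adjusted exact p was then 0.0381 or, for Ddx58 to Ifih1 without a library labelled KO and Ddx58 to Dhx58 without one labelled WT, 0.0571. Depth limits Isg15, Zbp1, Dhx58 and Irf7, with under 80 counts in each library.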

Other observations

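Genes of antigen presentation, a branch of the interferon response, were also mixed. Nlrc5, which drives MHC class I genes, went from 35.6 ± 4.82 CPM in the libraries labelled WT to 9.85 ± 3.37 CPM in those labelled KO (SD, n = 4; log2 difference -1.86). B2m, the light chain of MHC class I, was at 12.3 ± 1.32 and 10.7 ± 0.468 CPM (SD, n = 4; edgeR adjusted p = 0.257). Of 5 immunoproteasome and peptide transporter genes, Psmb10 rose by 0.73, Tap2 fell by 0.74 and 3 did not pass.

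Some interferon-inducible GTPase genes went the other way from Mx1. Irgm1 went from 4.82 ± 0.886 to 16.5 ± 4.22 CPM (SD, n = 4; log2 difference 1.77), Gbp2 rose by 1.99 and Gbp7 by 1.21, Igtp fell by 0.60, and Gbp3 did not pass.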
